A study of Mus musculus with 4 samples.

Results

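Many of the receptors through which serotonin, dopamine, noradrenaline and acetylcholine act on brain cells were read as transcripts in the forebrain of mice with or without hypertension and stroke. The set held the 46 genes whose symbols name a serotonin receptor (14 Htr genes), a dopamine receptor of types 3 to 5 (3 Drd genes), an alpha or beta adrenergic receptor (6 Adra and 3 Adrb genes), a muscarinic receptor (5 Chrm genes) or a nicotinic receptor subunit (9 Chrna, 4 Chrnb, Chrne and Chrng), of 33981 genes listed. The dopamine receptor genes Drd1 and Drd2 are not in the set and are counted below among the striatal markers. The set was defined by gene symbol alone, though with earlier results of these data known.

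Male C57BL/6J mice aged 3 to 5 months were infused under the skin for 28 days with saline (normotensive, NT) or with a peptide that raises blood pressure, angiotensin II, given as 0.28 mg/kg/day (hypertensive, HT). On day 7 each had sham surgery or a photothrombotic stroke, in which light on an injected dye closes vessels of the prefrontal cortex; the labels put the light 1.5 mm anterior to bregma, and the study's methods put it slightly further back. The 4 groups (NT + Sham, HT + Sham, NT + Stroke and HT + Stroke) each had 6 sequenced libraries of poly(A) RNA from whole coronal sections that include the prefrontal cortex. The study's methods plan its experiments in mice per group, but neither they nor the labels tie each numbered library to a mouse of its own. P-values therefore measure only the spread between these libraries, which may in part be technical.

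Most of these receptors are coupled to G proteins. Receptors coupled to Gq activate phospholipase C and release calcium, those coupled to Gs raise cyclic AMP, and those coupled to Gi lower it. The nicotinic receptors and the serotonin type 3 receptor are instead ion channels of several subunits, opened directly by their transmitter. In the cortex, acetylcholine from the basal forebrain, noradrenaline from the locus coeruleus, serotonin from the raphe and dopamine from the midbrain act through these receptors on attention, working memory and arousal.

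The libraries held 15922919 to 24865998 counts (median 18497215.5). Markers of lesion phagocytes did not follow the labels in 3 libraries. Their score, the mean of log2(CPM + 1) over 7 genes, none of them at 0 in all libraries, was 1.47 to 1.75 in NT + Sham and 3.70 to 6.05 in NT + Stroke, where CPM is a gene's count scaled to a common library size with TMM factors. It was 4.14 in HT + Sham 6 against 1.56 to 1.85 in the other HT + Sham libraries, and 2.27 and 2.33 in HT + Stroke 1 and 6 against 3.95 to 6.25 in the other HT + Stroke libraries. The main receptor results that use the HT groups are therefore given with and without these 3 libraries. Levels of regional markers also varied, while the plane of each section is not given in the sources used here. The summed level of 10 striatal markers ran from 433 to 1753 CPM within NT + Sham alone. An olfactory bulb score, over 8 genes, was 2.55 to 3.68 in NT + Sham, 3.19 to 5.09 in NT + Stroke, 3.33 to 5.20 in HT + Sham and 1.96 to 4.5 in HT + Stroke.

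**Figure D1:**
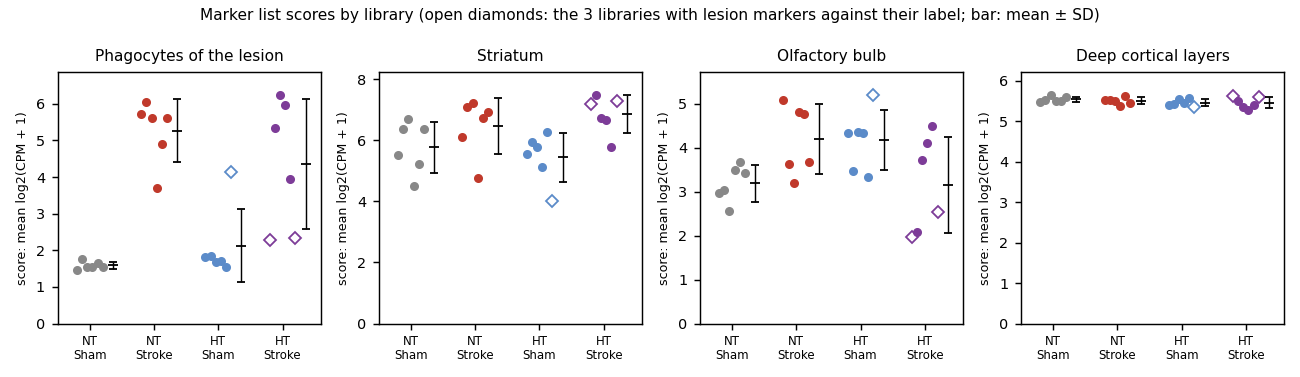
Scores of 4 marker lists in each library (y axis, mean log2(CPM + 1) over the list's genes; x axis, the 4 groups of 6 libraries; bars, mean ± SD). The open diamonds, HT + Sham 6 and HT + Stroke 1 and 6, lie away from the other libraries of their group in the phagocyte score, and the striatal and bulb scores spread widely within every group.

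The muscarinic receptor Chrm1, the main Gq-coupled acetylcholine receptor of cortical pyramidal cells, had the highest level. Levels are compared between genes as FPKM, which divides by gene length. In NT + Sham, Chrm1 stood at 39.1 ± 2.83 FPKM (SD, n = 6). It was followed by the Gq-coupled Adra1d at 20.01 ± 1.01, the Gi-coupled muscarinic receptor Chrm4 at 16.8 ± 3.51, the Gq-coupled Adra1b at 14.4 ± 1.17 and the Gs-coupled Adrb1 at 11.5 ± 1.01 FPKM. No other member reached 10 FPKM. The highest nicotinic subunits were Chrna4 at 8.58 ± 0.502 FPKM and Chrnb2 at 6.31 ± 0.457 FPKM, which together form the main high-affinity nicotinic receptor of the brain. Among serotonin receptors, Htr2a led with 5.64 ± 0.465 FPKM and the channel subunit Htr3a stood at 3.67 ± 0.601 FPKM.

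In that order, 11 members stood at or above 5 FPKM and 19 at or above 1 FPKM. The other 27 were lower, 7 of them under 0.1 FPKM. Of the 45 pairs of neighbours in the order, 42 had ranges over the 6 libraries that overlapped. The exceptions were Chrm1 above Adra1d, Chrna4 above Adra2a, and Htr1b above Adrb3.

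**Figure D2:**
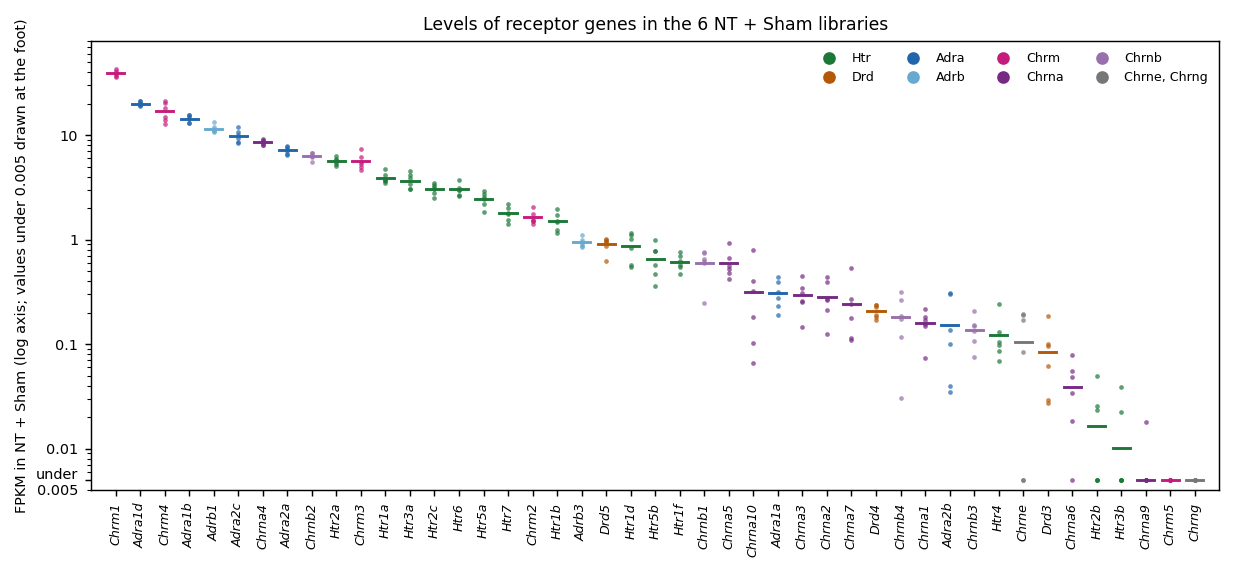
Level of 45 of the receptor genes in the 6 NT + Sham libraries (log y axis, FPKM, with values under 0.005 drawn at the foot; x axis, genes in falling order of mean; points, libraries; bars, means; colours, families). Chrm1 stands alone at the top at 39.1 FPKM and most neighbours in the order overlap.

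A filter on low counts kept 38 members for testing in at least 1 comparison and 36 in all 6 comparisons. The 8 members that it removed everywhere were Chrm5, Chrna6, Chrna9, Chrne, Chrng, Drd3, Htr2b and Htr3b. Chrm5 and Chrng were listed in 2 of the 4 deposited tables only. Nothing below speaks for these 8 genes unless they are named.

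After stroke in normotensive mice, receptors of several families were lower and few were higher. Between NT + Stroke and NT + Sham, 11 of 38 members fell and 2 rose at an adjusted P under 0.05 in edgeR's quasi-likelihood test, adjusted over all 16835 genes tested. Of all genes, 11.5% fell and 14.4% rose, 25.9% in all; of the members tested, 28.9% fell and 5.26% rose. The median log2 fold change was −0.07 over the members and −0.01 over all genes tested, and 24 of the 38 members had a negative value. In 6 members the 6 stroke libraries did not overlap the 6 sham libraries, which held for 13.5% of all genes tested. As these are bulk sections, fewer cells of a type and less RNA per cell cannot be told apart.

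The members were then grouped by coupling, a grouping made after the values were seen. Of the 9 Gq-coupled receptors 7 were tested, all 7 had a negative log2 fold change, and 5 fell. Of the 7 Gs-coupled receptors, all tested, 3 fell. Of the 13 Gi-coupled receptors 12 were tested, and 2 fell and 1 rose. Of the 17 channel subunits 12 were tested, and 1 fell and 1 rose.

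**Figure D3:**
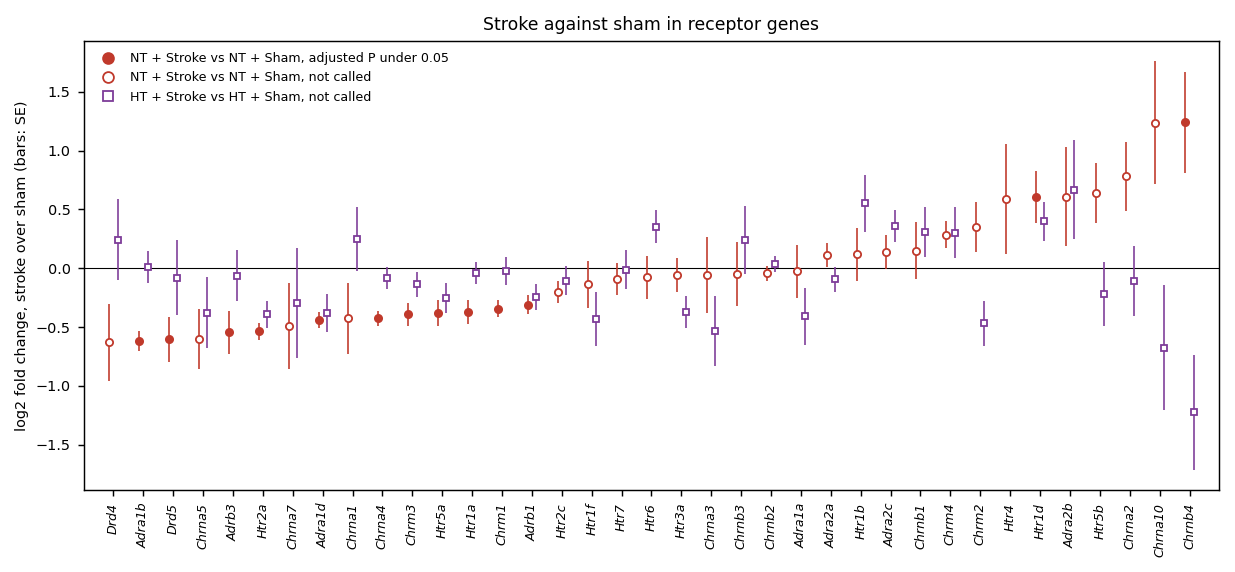
Log2 fold change of stroke over sham for 37 of the tested receptor genes (y axis; bars, SE; x axis, genes in order of the NT value). Filled circles are the 13 members past an adjusted P of 0.05 in NT mice, open circles the other NT values, and squares the HT values over all 12 HT libraries, none of which passed.

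Adra1b, the Gq-coupled alpha-1B receptor, had the smallest P among the members. Its lowest, median and highest values were 43.7, 49.7 and 53 CPM in NT + Sham and 24.4, 32.4 and 36 CPM in NT + Stroke. Every stroke library lay below every sham library. The means were 49.0 ± 4.05 and 31.8 ± 4.08 CPM (SD, n = 6 each), a log2 fold change of −0.62 ± 0.08 (SE, adjusted P = 2.69e-05).

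Htr2a, the Gq-coupled serotonin receptor on which classical hallucinogens act, came next. Its lowest, median and highest values were 28.1, 31.9 and 36 CPM in NT + Sham against 19.3, 21.6 and 23.8 CPM in NT + Stroke. Again the groups did not overlap. The log2 fold change was −0.54 ± 0.07 (SE, n = 6 each, adjusted P = 2.86e-05).

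Chrna4, the subunit that pairs with Chrnb2, ran from 40.5 to 46.6 CPM (median 43.4) in NT + Sham and from 29.3 to 36 CPM (median 31.8) in NT + Stroke, with no overlap. It fell by 0.43 ± 0.06 on the log2 scale (adjusted P = 6.63e-05). Its partner Chrnb2 ran from 46.5 to 57.7 CPM (median 53.5) in NT + Sham and from 45.9 to 56.2 CPM (median 52.3) in NT + Stroke, and at −0.04 ± 0.07 did not pass (adjusted P = 0.682). It stood at 47.2 to 57 CPM in HT + Sham and 50.7 to 58.7 CPM in HT + Stroke, so its ranges overlapped in all 4 groups. Exons of Adar on the opposite strand cover 16.3% of Chrnb2 exon bases. Whether counting used strand is not given, so reads of Adar there cannot be told apart from those of Chrnb2. Their part in the Chrnb2 values was not tested.

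The RefSeq promoters of these 3 members are shown because they carried the smallest P-values. Each runs from 250 bases before to 50 after the start in GRCm38.p6, at chr11:43901188-43901487 on the minus strand for Adra1b, chr14:74640624-74640923 on the plus strand for Htr2a and chr2:181039128-181039427 on the minus strand for Chrna4. Capitals mark matches, on either strand, to 5 motifs: GGGCGG (Sp/KLF), TGACGTCA (the cyclic AMP response element), TGANTCA (AP-1), CACGTG (E-box) and GCGNGGGCG (EGR).
Adra1b: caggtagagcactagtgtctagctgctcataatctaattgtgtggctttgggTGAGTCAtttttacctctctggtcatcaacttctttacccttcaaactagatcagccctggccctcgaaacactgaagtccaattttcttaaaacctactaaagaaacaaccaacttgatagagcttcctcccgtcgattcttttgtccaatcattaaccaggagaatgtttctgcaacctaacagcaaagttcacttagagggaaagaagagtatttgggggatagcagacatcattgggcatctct
Htr2a: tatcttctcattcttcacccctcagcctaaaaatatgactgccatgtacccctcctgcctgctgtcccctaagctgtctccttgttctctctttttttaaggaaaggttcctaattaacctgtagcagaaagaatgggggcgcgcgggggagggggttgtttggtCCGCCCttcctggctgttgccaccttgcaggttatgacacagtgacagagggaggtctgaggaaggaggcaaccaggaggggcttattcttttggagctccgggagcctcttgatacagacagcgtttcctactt
Chrna4: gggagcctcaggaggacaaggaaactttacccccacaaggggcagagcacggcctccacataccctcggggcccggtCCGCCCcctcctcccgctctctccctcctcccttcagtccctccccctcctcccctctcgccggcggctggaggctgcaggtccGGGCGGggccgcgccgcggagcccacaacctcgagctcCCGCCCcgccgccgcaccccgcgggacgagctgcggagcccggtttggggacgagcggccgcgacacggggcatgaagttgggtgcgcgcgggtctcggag
Adra1b held 1 AP-1 match, Htr2a 1 Sp/KLF match and Chrna4 3 Sp/KLF matches. Sp/KLF letters were in 35.7% of all 32851 windows of this length and in 17 of the 35 members with a window. AP-1 letters were in 7.81% of all windows and in 4 of the 35, E-boxes in 7.15% and 3, EGR letters in 5.55% and 2, and the cyclic AMP response element in 1.79% and 0. These matches are letters only, and no binding was measured.

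The other Gq-coupled receptors gave smaller changes. Genes on the opposite strand overlap 7.74% of the exon bases of Adra1d and 5.07% of those of Chrm1. Adra1d ran from 36.6 to 40.6 CPM (median 37.5) in NT + Sham and from 24.9 to 31.8 CPM (median 27.4) in NT + Stroke, and the groups did not overlap. Its log2 fold change was −0.44 ± 0.07 (adjusted P = 1.51e-04). Chrm1 ran from 234 to 282 CPM (median 254) and from 174 to 228 CPM (median 204), again without overlap, with a log2 fold change of −0.34 ± 0.07 (adjusted P = 0.00111). Chrm3, a muscarinic receptor that also works through phospholipase C, had values of 29.1 to 46.3 CPM (median 33.7) in NT + Sham and 24 to 29.4 CPM (median 27.2) in NT + Stroke. These groups overlapped narrowly, and the log2 fold change was −0.39 ± 0.10 (adjusted P = 0.00542). Htr2c at −0.20 ± 0.09 and Adra1a at −0.03 ± 0.22 on the log2 scale did not pass.

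Among Gs-coupled receptors, Adrb1, the principal beta receptor of cortical neurons, fell by 0.31 ± 0.08 on the log2 scale (adjusted P = 0.00744). It ran from 26.8 to 33.3 CPM (median 28.0) in NT + Sham and from 21 to 28.4 CPM (median 22.6) in NT + Stroke, where library 2 alone reached into the sham range. Drd5, a dopamine receptor of the D1 class, averaged 1.86 ± 0.461 CPM after stroke and 2.86 ± 0.46 CPM after sham surgery in NT mice (log2 fold change −0.61 ± 0.19, adjusted P = 0.0234). Adrb3 was at 3.22 ± 0.334 and 2.17 ± 0.59 CPM (−0.55 ± 0.18, adjusted P = 0.0316). Both calls were lost when certain single libraries were left out. Drd5 missed the threshold without NT + Sham 1 or NT + Stroke 2 or 4 (adjusted P 0.0554 to 0.0611). Adrb3 missed it without any of NT + Sham 2, 4, 5 and 6 and NT + Stroke 1, 2, 3 and 5 (adjusted P up to 0.0719). Exons of another gene on the opposite strand cover 48.6% of Drd5 exon bases (Gm26560) and 24.9% of those of Adrb3 (Gm45470). The sources used here do not say whether counting used strand, so such reads cannot be told apart. Htr6 at −0.08 ± 0.18 and Htr7 at −0.09 ± 0.14 on the log2 scale did not pass.

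Among Gi-coupled receptors, Htr1a, which acts both as an autoreceptor of serotonin neurons and on cortical cells, fell by 0.37 ± 0.10 on the log2 scale (adjusted P = 0.0115). It ran from 15.9 to 21.6 CPM (median 16.6) in NT + Sham and from 10.7 to 15.8 CPM (median 13.8) in NT + Stroke, so that the lowest sham library stood just above the highest stroke library. Htr5a fell by 0.38 ± 0.11 (adjusted P = 0.0161), from 13.3 ± 2.09 to 10.1 ± 1.19 CPM with overlapping groups. Its call was lost without TMM factors and with the striatal score in the fit. Htr1d rose from 2.81 ± 0.873 to 4.27 ± 1.21 CPM (log2 fold change 0.61 ± 0.22, adjusted P = 0.0486). Htr1d missed the threshold without any of NT + Sham 2, 4, 5 and 6 and NT + Stroke 3, 5 and 6 (0.0562 to 0.117). Chrm4, which is abundant in striatal neurons, ran from 18.4 to 31 CPM in NT + Sham and from 24 to 34.7 CPM in NT + Stroke, and at 0.29 ± 0.12 on the log2 scale did not pass (adjusted P = 0.0879). Drd4, the Gi-coupled receptor of the D2 class, had 0.578 to 0.807 CPM in NT + Sham and 0.160 to 0.649 CPM in NT + Stroke, and at −0.63 ± 0.33 did not pass (adjusted P = 0.179).

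The genes of the nicotinic cluster on chromosome 9 gave values of both signs. Chrna5, Chrna3 and Chrnb4 are neighbours there, and alpha-3 with beta-4 subunits forms the receptor typical of autonomic ganglia. Their RefSeq promoters are shown because the log2 fold changes of these neighbours ran from −0.60 to 1.24. The windows lie at chr9:54980630-54980929 on the plus strand (Chrna5), chr9:55026513-55026812 on the minus strand (Chrna3) and chr9:55048495-55048794 on the minus strand (Chrnb4), in GRCm38.p6, with the same motifs in capitals.
Chrna5: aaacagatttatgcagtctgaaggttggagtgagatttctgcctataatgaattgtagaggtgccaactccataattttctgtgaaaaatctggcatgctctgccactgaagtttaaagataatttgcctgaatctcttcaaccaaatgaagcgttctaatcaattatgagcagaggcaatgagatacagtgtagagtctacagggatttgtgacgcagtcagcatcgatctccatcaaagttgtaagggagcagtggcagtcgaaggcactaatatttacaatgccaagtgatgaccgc
Chrna3: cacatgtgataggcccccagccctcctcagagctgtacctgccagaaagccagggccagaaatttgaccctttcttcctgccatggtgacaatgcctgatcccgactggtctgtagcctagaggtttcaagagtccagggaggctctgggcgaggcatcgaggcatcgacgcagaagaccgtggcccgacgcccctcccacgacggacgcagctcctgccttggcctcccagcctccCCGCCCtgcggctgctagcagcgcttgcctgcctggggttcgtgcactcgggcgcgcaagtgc
Chrnb4: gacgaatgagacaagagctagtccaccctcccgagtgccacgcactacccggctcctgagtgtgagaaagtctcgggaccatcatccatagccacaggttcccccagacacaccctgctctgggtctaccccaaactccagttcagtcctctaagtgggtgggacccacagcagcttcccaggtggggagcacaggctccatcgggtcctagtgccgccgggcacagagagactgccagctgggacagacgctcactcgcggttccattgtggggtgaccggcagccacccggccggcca
Chrna3 held 1 Sp/KLF match, and the windows of Chrna5 and Chrnb4 held none of the 5 motifs.

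Chrnb4 rose from 0.677 ± 0.38 to 1.61 ± 0.9 CPM (log2 fold change 1.24 ± 0.43, adjusted P = 0.0415). Its stroke libraries fell into high values of 2.20, 2.46 and 2.61 CPM and values of 0.708, 0.809 and 0.876 CPM within the sham range of 0.116 to 1.18 CPM. The call was lost without any of NT + Sham 1, 2, 3 and 6 and NT + Stroke 1, 4 and 5 (adjusted P 0.0598 to 0.0955). Chrna5 at −0.60 ± 0.26 (adjusted P = 0.0963) and Chrna3 at −0.06 ± 0.32 (adjusted P = 0.926) did not pass. Other subunits with large values at low counts, Chrna10 at 1.24 ± 0.52 (adjusted P = 0.103, with 39% of its exon bases overlapped by Art1) and Chrna2 at 0.78 ± 0.29 (adjusted P = 0.0575), did not pass either. Chrna10 ran from 0.173 to 2.1 CPM (median 0.669) in NT + Sham and from 0.684 to 3.66 CPM (median 1.69) in NT + Stroke, and Chrna2 from 0.483 to 1.65 CPM (median 1.02) and from 0.767 to 2.57 CPM (median 1.94). Both sets of ranges overlapped. Htr3a, the main subunit of the serotonin-gated channel, ran from 6.4 to 9.35 CPM and from 5.6 to 9.18 CPM, at −0.06 ± 0.14 (adjusted P = 0.810).

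**Figure D4:**
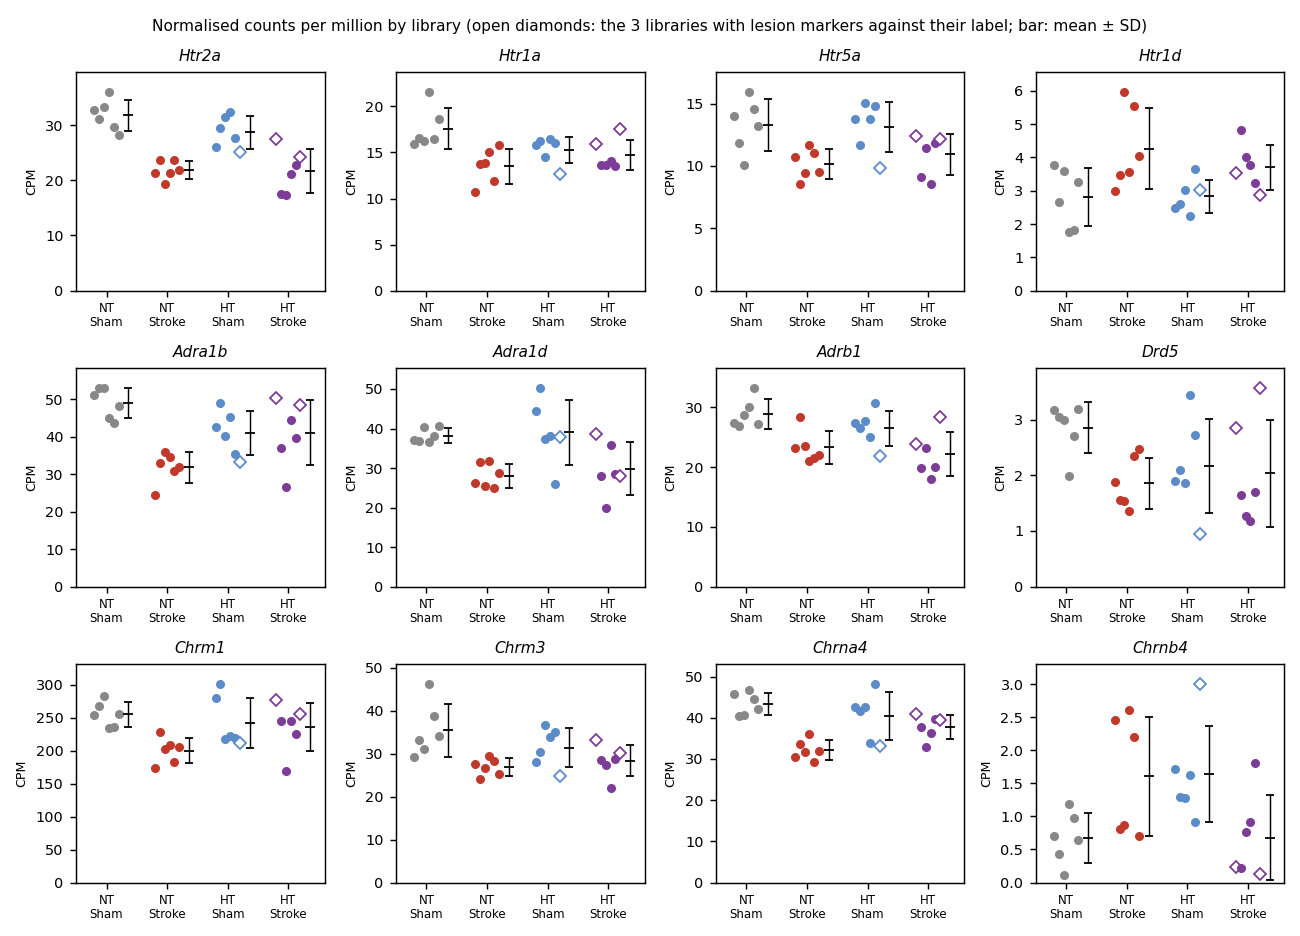
Normalised counts (CPM) of 12 receptor genes in each library (y axis, CPM from 0; x axis, the 4 groups; bars, mean ± SD; open diamonds, HT + Sham 6 and HT + Stroke 1 and 6). Htr2a, Adra1b and Chrna4 separate the NT groups fully, and HT + Stroke 1 is the highest library of its group in Htr2a, Adra1b and Chrna4.

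Cell type markers also differed between these groups, in both directions. Of 7 markers of upper cortical layers, 5 fell and 1 rose between NT + Stroke and NT + Sham, and their summed level ran from 553 to 643 CPM in NT + Sham and from 476 to 534 CPM in NT + Stroke. Of 8 markers of deep cortical layers, 2 fell and 1 rose, and of 8 interneuron markers 2 fell and 2 rose. All 7 phagocyte markers and all 6 markers of reactive astrocytes rose, as did 5 of 6 microglial markers. None of these markers was at 0 in all libraries. Their part in the receptor values was not tested.

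Whether regional markers move with the receptors was examined by adding the striatal and bulb scores to the fit. Both scores had a higher median in NT + Stroke than in NT + Sham (striatal 6.83 and 5.94, bulb 4.22 and 3.22). Stroke and these scores, which may differ with section plane, therefore cannot be separated by these fits. With the striatal score as a covariate 13 members passed, 10 of them among the first 13, where 25.8% of all genes passed. With the bulb score 9 passed, 8 of them among the first 13, where 20.6% of all genes passed. Adrb3, Htr1d and Htr5a lost their call with the striatal score. Adrb1, Chrm1, Htr1a, Drd5 and Chrnb4 lost their call with the bulb score. Htr2a, Adra1b, Chrna4, Adra1d and Chrm3 kept theirs under either score.

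With both scores 0 of 38 members passed in edgeR (8 at an unadjusted P under 0.05), and 3.86% of all genes did. Under both scores Htr2a had a log2 fold change of −0.48 ± 0.14, with the lowest adjusted P among the members (0.0650), and Adra1b one of −0.37 (adjusted P = 0.135). The fits with 1 score, like the slopes below, were chosen after the data were seen.

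Chrnb4 was the member whose value depended most on the bulb score. Its log2 fold change was 1.76 with the striatal score (adjusted P = 6.20e-04) and −0.09 with the bulb score (adjusted P = 0.899). Slopes on a score were fitted with hypertension and the other score in the model. Over the 12 stroke libraries the log2 level of Chrnb4 rose by 1.03 ± 0.22 for each unit of bulb score. This slope did not pass (edgeR, adjusted P = 0.0588). No member passed for either score in the sham or the stroke libraries. Of all genes, 0.47% passed for the bulb score and 0.288% for the striatal score in the stroke libraries, and 0.139% and 0.163% in the sham libraries. For the bulb score in the stroke libraries 10 of 38 members had an unadjusted P under 0.05. Without the libraries whose lesion markers did not follow their label, this count was 5 of 39 members. The lowest adjusted P for that slope was then 0.247 (edgeR), against 0.0588 with them.

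**Figure D5:**
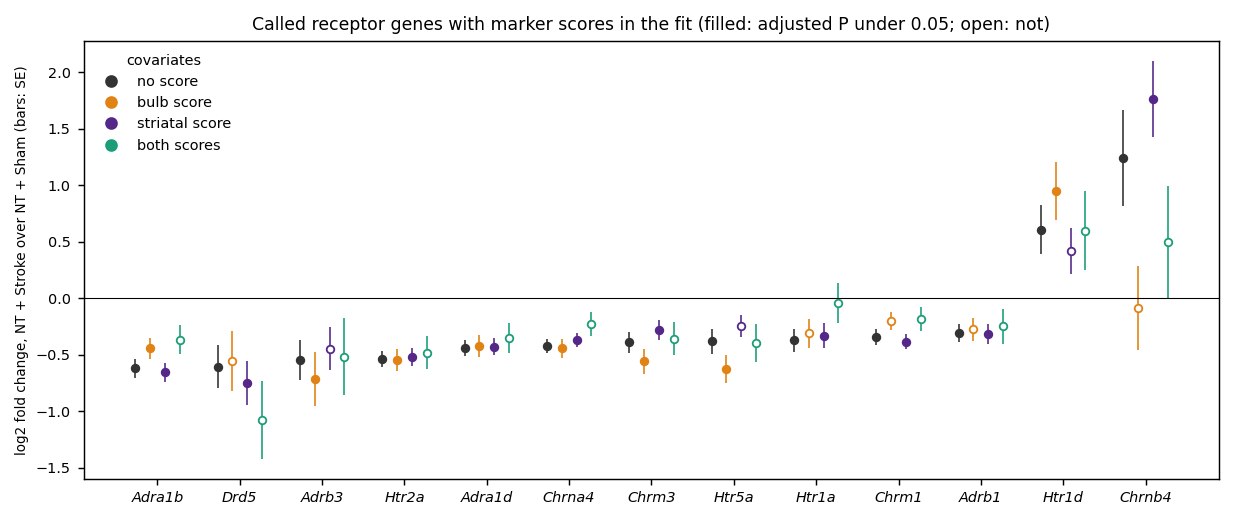
Log2 fold change of NT + Stroke over NT + Sham for the 13 called receptor genes without and with marker scores as covariates (y axis; bars, SE; x axis, genes; filled points, adjusted P under 0.05). Htr2a stays between −0.48 and −0.54 in all 4 fits, whereas Chrnb4 runs from −0.09 to 1.76.

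In hypertensive mice the same surgery gave no call over all 12 libraries. Between HT + Stroke and HT + Sham, 0 of 37 members passed in edgeR, with 10 at an unadjusted P under 0.05; DESeq2 called Htr2a only. Over all genes 0.645% passed (0.544% higher, 0.102% lower) and 17% had an unadjusted P under 0.05. No member separated the groups without overlap, as 1.15% of all genes did. With the striatal or the bulb score in the fit 0 members passed either, where 0.0179% and 5.29% of all genes did. The median log2 fold change was −0.09 over the members and 0.00 over all genes tested. Htr2a had the lowest adjusted P (0.0988), with a log2 fold change of −0.39 ± 0.11. Its lowest, median and highest values were 25.1, 28.5 and 32.4 CPM in HT + Sham and 17.3, 21.9 and 27.4 CPM in HT + Stroke. All 6 stroke libraries lay below the median of the sham libraries.

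The 3 libraries with lesion markers against their label lay on the other side of their groups for most of these genes. Of the 11 members that fell in NT mice, HT + Sham 6 had the lowest level of its group in 9. HT + Stroke 1 and 6 had the 2 highest levels of their group in 8 of the 11.

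Without those 3 libraries, an alternative chosen after the data were seen, 2 of 38 members passed and both fell, while 8.47% of all genes passed. Htr2a was at 29.4 ± 2.64 CPM (26.0 to 32.4, n = 5) in HT + Sham and 19.7 ± 2.74 CPM (17.3 to 22.8, n = 4) in HT + Stroke. The groups did not overlap, and the log2 fold change was −0.58 ± 0.11 (edgeR, adjusted P = 0.00443). Adrb1 was at 27.4 ± 2.06 and 20.2 ± 2.19 CPM, again with no overlap, with a log2 fold change of −0.44 ± 0.10 (edgeR, adjusted P = 0.0137). Over these libraries 27 of 38 members had a negative value.

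The levels of the other members in the HT groups were as follows, each as the lowest, median and highest library. Adra1b had 33.2, 41.4 and 49.1 CPM in HT + Sham and 26.7, 42 and 50.3 CPM in HT + Stroke. Chrna4 had 33, 42.1 and 48.2 CPM against 32.9, 38.5 and 40.9 CPM, and Chrm1 had 212, 221 and 302 CPM against 169, 245 and 276 CPM. The ranges of these 3 genes overlapped, with a lower median after stroke for Chrna4 and a higher one for Adra1b and Chrm1. Adra1d had 26, 37.9 and 50.3 CPM in HT + Sham and 20, 28.3 and 38.7 CPM in HT + Stroke. Adrb1 had 21.8, 26.9 and 30.6 CPM against 17.9, 21.6 and 28.3 CPM, and Chrm3 had 24.8, 32.1 and 36.6 CPM against 22.1, 28.7 and 33.1 CPM. In these 3 the median was lower after stroke while the ranges overlapped. Htr1a had 12.7, 15.9 and 16.4 CPM against 13.6, 13.8 and 17.5 CPM, and Htr5a had 9.83, 13.8 and 15 CPM against 8.59, 11.7 and 12.4 CPM. Drd5 (0.952 to 3.44 and 1.18 to 3.58 CPM) and Adrb3 (1.77 to 4.35 and 2.34 to 3.97 CPM) covered much the same range in both groups. Htr1d had 2.24, 2.8 and 3.64 CPM against 2.87, 3.64 and 4.82 CPM, and Chrnb4 had 0.91, 1.46 and 3.01 CPM against 0.128, 0.497 and 1.81 CPM, in the opposite direction to NT mice. Chrm4 ran from 13.2 to 34.3 CPM in HT + Sham and from 23.2 to 43.5 CPM in HT + Stroke, and Htr3a from 7.66 to 10.4 and from 5.27 to 9.35 CPM. The low subunits Chrna10 (0.741 to 3.43 and 0.285 to 2.72 CPM), Chrna2 (0.926 to 2.56 and 0.702 to 2.46 CPM) and Chrnb1 (0.926 to 1.63 and 1.26 to 2.21 CPM) overlapped between the HT groups.

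For the members that fell in NT mice, the log2 fold changes in HT mice are set side by side over all 12 libraries and without the 3. Adra1b stood at 0.01 ± 0.14 over all and −0.20 ± 0.14 without the 3, Chrna4 at −0.08 ± 0.09 and −0.19 ± 0.10, and Chrm1 at −0.03 ± 0.12 and −0.16 ± 0.14. Adra1d stood at −0.38 ± 0.16 and −0.48 ± 0.18, and Chrm3 at −0.14 ± 0.11 and −0.29 ± 0.11. Among Gs- and Gi-coupled members, Drd5 stood at −0.08 ± 0.32 and −0.73 ± 0.25, Htr1a at −0.04 ± 0.09 and −0.20 ± 0.09, Htr5a at −0.25 ± 0.13 and −0.42 ± 0.13, and Adrb3 at −0.06 ± 0.21 and −0.07 ± 0.26. None of these 9 passed in either set, and without the 3 libraries all 9 were negative (adjusted P 0.0627 to 0.919). Htr1d, higher after stroke in NT mice, was at 0.40 ± 0.17 over all libraries and 0.50 without the 3, and did not pass. Chrnb4 had the opposite sign in HT mice, −1.23 ± 0.49 over all libraries (adjusted P = 0.214) and −0.54 ± 0.42 without the 3 (adjusted P = 0.512). Its highest value in HT + Sham, 3.01 CPM, was in HT + Sham 6, which also had the highest bulb score of its group.

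HT + Stroke was also set against NT + Sham, a comparison that shares libraries with the others. In it 2 of 37 members passed, both lower, where 14.7% of all genes passed, 6.37% lower and 8.38% higher. At an unadjusted P under 0.05 there were 10 members, where 29.6% of all genes had one. Htr2a had a log2 fold change of −0.54 ± 0.11 (edgeR, adjusted P = 0.00988) and did not overlap between the groups, as 5.93% of all genes did not. Adrb1 had one of −0.37 ± 0.10 (edgeR, adjusted P = 0.0256). Without the 3 libraries 10 members passed, all lower, where 20.6% of all genes passed: Adra1b, Adra1d, Adrb1, Chrm3, Chrna4, Chrna5, Drd5, Htr1a, Htr2a and Htr2c. Both calls were lost with the striatal score in the fit (Htr2a adjusted P = 0.0704, Adrb1 adjusted P = 0.110), where 0% of all genes passed, and with both scores. With 1 library left out the count was 5 without HT + Stroke 1 or 6, and 1 without NT + Sham 4 or 5 or HT + Stroke 2 or 5.

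Hypertension alone gave no call. Between HT + Sham and NT + Sham 0 of 36 members passed in edgeR and in DESeq2, as did 0% of all genes, and 5 members had an unadjusted P under 0.05, where 8.03% of all genes had one. The median log2 fold change was −0.04 over the members and 0.00 over all genes. Chrnb4 had the smallest P, with 1.64 ± 0.729 CPM in HT + Sham against 0.677 ± 0.38 CPM in NT + Sham (log2 fold change 1.27 ± 0.37, adjusted P = 0.406). The bulb score was at most 3.68 in NT + Sham, a value that 4 of the 6 HT + Sham libraries exceeded. Adra1b stood at −0.26 ± 0.09 (adjusted P = 0.472) and Chrna2 at 0.70 ± 0.30 (adjusted P = 0.576). Without HT + Sham 6, 0 of 37 members passed, and those with an unadjusted P under 0.05 were 2 and no longer 5. They were Chrnb4 at 0.99 ± 0.36 and Adra1b at −0.21 ± 0.09, while Chrna2 stood at 0.56 ± 0.31.

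Between HT + Stroke and NT + Stroke, the comparison of stroke with and without hypertension, 0 of 38 members passed in edgeR and in DESeq2, as did 0% of all genes. Again 5 members had an unadjusted P under 0.05, where 7.23% of all genes had one. The 3 smallest P-values were those of Chrna4 (log2 fold change 0.23 ± 0.07, unadjusted P = 0.0045), Adra1b (0.36 ± 0.14, 0.0174) and Chrm1 (0.23 ± 0.10, 0.0363), each with an adjusted P of 0.654. Drd4 ran from 0.160 to 0.649 CPM in NT + Stroke and from 0.453 to 1.34 CPM in HT + Stroke. These ranges overlapped, and the log2 fold change of 0.71 ± 0.38 did not pass at an unadjusted P of 0.084. Its highest values were 1.34 CPM in HT + Stroke 6 and 0.968 CPM in HT + Stroke 1, and without these libraries its log2 fold change was 0.28 ± 0.40 (unadjusted P = 0.497). Without them 0 members passed and 1, Chrna4 at 0.18 ± 0.08, had an unadjusted P under 0.05. Adra1b then stood at 0.21 ± 0.13 and Chrm1 at 0.14 ± 0.11.

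The difference between the effects of stroke in HT and NT mice was tested as an interaction over all 24 libraries. In edgeR 0 of 38 members passed, as did 0% of all genes and 0 members in DESeq2; 8 members had an unadjusted P under 0.05, where 10.4% of all genes had one. Adra1b had an interaction of 0.63 ± 0.17 on the log2 scale (adjusted P = 0.318), Chrna4 one of 0.34 ± 0.11 (adjusted P = 0.322) and Chrnb4 one of −2.47 ± 0.70 (adjusted P = 0.319). Without the 3 libraries 0 passed and 3 members had an unadjusted P under 0.05, namely Adra1b at 0.42 ± 0.16, Chrna4 at 0.24 ± 0.11 and Chrnb4 at −1.78 ± 0.66. The receptors that fell in NT mice and did not pass in HT mice are thus not shown to differ between them.

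The other genes of these pathways are given against the same background as the receptors, 14.4% of all genes higher, 11.5% lower and a median log2 fold change of −0.01 after stroke in NT mice. 15 of 19 listed genes for monoamine synthesis, transport and breakdown were tested, and 3 rose and 0 fell, a median of 0.18 on the log2 scale and fewer calls in all than the 25.9% of the background. They were Th, the rate-limiting enzyme of catecholamine synthesis (log2 fold change 1.23, adjusted P = 0.0472), Slc6a3, the dopamine transporter (1.27, adjusted P = 0.0402), and Aldh1a1, an aldehyde dehydrogenase of dopamine neurons (0.36, adjusted P = 0.00124). Th and Slc6a3 are also expressed by dopamine cells of the olfactory bulb. All 7 listed genes for acetylcholine handling were tested, and 3 rose and 0 fell, with a median of 0.98: Chat, which makes acetylcholine (1.63, adjusted P = 0.0479), Bche, which hydrolyses it (0.53, adjusted P = 0.00954), and Prima1, which anchors acetylcholinesterase (1.06, adjusted P = 5.67e-04). Among regional markers, 4 of 8 bulb markers and 3 of 9 markers of septum and basal forebrain rose, and 0 of either fell. The septal list shares Chat, Slc5a7 and Slc18a3 with the acetylcholine list, so these lists are not independent. Of the shared genes Chat alone passed. The summed level of the septal list was 47.9 to 69 CPM in NT + Sham, 77.6 to 114 CPM in NT + Stroke, 58 to 85.9 CPM in HT + Sham and 72.9 to 104 CPM in HT + Stroke. Their part in these values was not tested.

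Of 9 listed Ly6 proteins and nicotinic receptor chaperones 8 were tested, and Lypd6 alone passed (−0.47, adjusted P = 0.00174).

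Among the G proteins and effectors downstream, 21 of 22 listed genes were tested, and 7 fell and 4 rose, with a median log2 fold change of −0.08, where 11.5% of all genes fell and 14.4% rose. Among those that fell were the G protein genes Gnaz (−0.33, edgeR, adjusted P = 0.00196), Gnaq, the Gq alpha subunit (−0.25, adjusted P = 0.0118), and Gnai1 (−0.22, adjusted P = 0.0446). The phospholipases Plcb1 (−0.22, adjusted P = 0.00442) and Plcb4 also fell. So did the adenylyl cyclases Adcy2 (−0.26, adjusted P = 0.00727) and Adcy1, a neuronal one (−0.64, adjusted P = 6.40e-05). Those that rose were Plcb2, Plcb3, Adcy7 and Gnai2, of which Plcb2 and Adcy7 are known from blood and immune cells. Of 13 receptor kinases, arrestins and regulators of G protein signalling, 4 fell and 0 rose, with a median of −0.07: Grk2, Grk3, Rgs4 and Rgs7. In HT + Stroke against HT + Sham 0 genes of these 5 lists passed over all 12 libraries, where 0.645% of all genes passed. The lists are not given without HT + Sham 6 and HT + Stroke 1 and 6.

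One member that the filter removed gave a difference at very low counts, and is named because of them. Htr2b, a Gq-coupled serotonin receptor, had 1, 1, 0, 2, 0 and 0 counts in the NT + Sham libraries and 6, 10, 10, 5, 7 and 20 counts in the NT + Stroke libraries. The HT + Sham libraries had 0, 2, 0, 4, 2 and 9 counts, the highest in HT + Sham 6, and the HT + Stroke libraries 1, 11, 19, 9, 2 and 0, with 1 and 0 in HT + Stroke 1 and 6. Against a floor of 3 counts for each library, NT + Stroke stood at least 2.97-fold higher. A fit without the filter gave an adjusted P of 0.000127 (edgeR). Exons of Psmd1 on the opposite strand cover 11.8% of Htr2b exon bases, and the phagocyte score was also high in HT + Sham 6 and low in HT + Stroke 1 and 6. Its part in the Htr2b counts was not tested.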

How the data were processed

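RNA was sequenced from coronal forebrain sections of the 4 groups, 6 libraries each. The authors deposited gene tables with counts, made with featureCounts 1.5.0-p3 per the submitters' processing notes, and with FPKM values; the genome is the Ensembl mouse genome, its build and the aligner's settings being not given in the sources used here. A further 48 deposited columns of normalized counts, and columns of the authors' own comparisons (fold changes, P-values), were not used. 48 columns repeated between tables were compared and 0 differed.

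Deposited counts of the libraries of the groups compared were fitted with edgeR 4.0.16 in R 4.3.3 (filterByExpr with a minimum count of 10, TMM, robust quasi-likelihood F-test), P-values adjusted after Benjamini and Hochberg across the genes tested (threshold 0.05); the interaction used 24 libraries. The SE is the absolute log2 fold change divided by the square root of F. DESeq2 1.42.0 and limma 3.58.1 on log2(FPKM + 1) and log2(FPKM + 0.1) were alternatives. CPM used TMM factors over 24 libraries, and a score left out list genes averaging under 0.5 CPM. The edgeR fits (pairwise, all groups in 1 fit, replicate block, interaction and slope), DESeq2 and limma with 0.1 added were tested on simulated data. The fits with marker scores as covariates, without TMM, with other filters and limma with 1 added were not. Of 46 members, 42 have the position of GENCODE M21 (GRCm38), from which exon overlaps were taken.

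The members, the 5 pathway lists and the 17 marker lists were chosen with earlier results of these data known. Members with values in every group are those called after stroke, the 2 of highest mean FPKM in each family, the 3 of smallest P in the other comparisons and the interaction, and Drd4; the chromosome 9 cluster, Htr2b and uncalled members of a class were added after their values were seen. Counts limit precision through counting error and the 6 libraries of a group. One gene's own values are not reported here.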

Additional observations from a re-analysis of the deposited data

Results flagged for a closer look

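In 96 groups of 6 libraries, 4 held a library whose gap to the nearest other, as a share of the group's range, passed Dixon's critical value. The groups were those of the 20 named receptor genes and of some of the 17 marker lists. The other lists, such as reactive astrocytes, were not screened. The reactive astrocyte score was 4.98 in HT + Sham 6 and 3.47 to 3.69 in the other HT + Sham libraries. Chance flags about 1 group in 20.

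Adrb1 in NT + Stroke was at 28.4 CPM in library 2, against 21 to 23.5 CPM in the other 5. Chrnb1, a subunit of the muscle nicotinic receptor, was at 0.636 CPM in NT + Sham 3, against 1.50 to 1.93 CPM in the other NT + Sham libraries.

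The phagocyte score was 4.14 in HT + Sham 6, against 1.56 to 1.85 in the other HT + Sham libraries. The score of 5 skeletal muscle markers was 5.18 in HT + Stroke 6, against 1.06 to 1.33 in the other HT + Stroke libraries. That library held 14 counts of Chrna1, 20 of Chrnb1 and 0 of Chrne and Chrng, all subunits of the muscle receptor.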

How the results depend on the processing

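Each result was recomputed with DESeq2, without TMM, with other filters, with limma on FPKM, with all 4 groups in 1 fit, with the library number as a block, with marker scores and without each library. In NT mice the 13 calls became 0 with both marker scores and 10 to 13 without single libraries. Of the 13, 11 were kept in each limma fit and with all 4 groups in 1 fit. The same number was kept without TMM and with all genes of at least 1 count. Htr5a and Chrnb4 lost their call in both limma fits. The 0 calls of HT + Stroke against HT + Sham became 1 with DESeq2, 1 with all groups in 1 fit, 2 without the 3 libraries, 10 unadjusted and 0 to 1 without single libraries. The 2 calls of HT + Stroke against NT + Sham became 5 with DESeq2, 1 with the replicate block, 0 with both scores or the striatal score, 4 with the bulb score, 10 without the 3 libraries, 10 unadjusted and 1 to 5 without single libraries. Unadjusted counts elsewhere were 5 (HT + Sham against NT + Sham), 5 (HT + Stroke against NT + Stroke) and 8 (interaction). Signs turned for Chrnb4 after stroke in NT mice with the bulb score (−0.087) and for Chrna2 in HT + Sham against NT + Sham with both scores (−0.37). The causes were not tested. Library numbers did not pair the samples: 12 of 30 pairs correlated above 0.1, and the replicate block gave 15 calls in NT mice. Of 312 single-library omissions over named members, 25 changed a call, in Drd5, Adrb3, Chrnb4 and Htr1d. Leaving out the 3 libraries, the scores singly and the slopes were chosen after seeing the data. Members under about 1 CPM are limited by counting error.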
